A study of Mus musculus with 16 samples.

Results

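The C/EBP (CCAAT/enhancer-binding protein) genes Cebpa, Cebpb, Cebpd, Cebpe and Cebpg were followed through resident macrophages with and without the transcription factor Bhlhe40. They are 5 of the 19938 genes with a probe set of a single symbol on the array, each with 1 probe set, and all 5 passed the filter on low values. The family was selected by name, and because Cebpe signal was lower in both mutants than in wild type after IL-4c. The mutant-minus-wild-type values of the IL-4c groups are therefore a description without a test for all members, as are the IL-4c responses of Cebpe.

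RNA from sorted cells of male C57BL/6 mice was hybridised to 16 one-colour Affymetrix mouse gene arrays, and the values are RMA log2 signal, on which a difference of 1 is a 2-fold change. The 7 groups were alveolar macrophages (AM, from lung digests) of untreated Bhlhe40+/+ (WT, 2 arrays) and Bhlhe40-/- mice (KO, 2 arrays), large peritoneal macrophages (LPM, from peritoneal lavage) of untreated WT (3) and KO mice (3), and LPM of IL-4c-injected WT (2), KO (2) and LysM-Cre+ Bhlhe40fl/fl mice (LysM, 2). IL-4c, interleukin-4 complexed with an antibody that prolongs its action, was injected on days 0 and 2, and mice were killed on day 4. In the LysM mice Cre is driven by the promoter of the lysozyme gene Lyz2, which is active in myeloid cells and not in macrophages alone, and its comparison group is the Bhlhe40+/+ one; the samples hold no group with Cre alone or floxed alleles alone. The labels give no ages and do not tie arrays to separate mice, so every p-value rests on the spread between arrays of a group, which may be technical.

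C/EBP proteins are basic leucine zipper factors that bind DNA as dimers with each other and with relatives such as ATF4 and AP-1 proteins. C/EBP-alpha commits progenitors to the granulocyte and monocyte lineage and restrains their division. C/EBP-beta is needed for the upkeep of resident peritoneal and alveolar macrophages and for part of the response to IL-4, and C/EBP-delta is an inducible factor of acute inflammation. C/EBP-epsilon drives late granulocyte maturation and its granule genes. C/EBP-gamma has no activation domain of its own and works largely through partners such as ATF4 in the amino acid stress response. BHLHE40 is a repressor that binds E-boxes of the sequence CACGTG.

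Cebpa and Cebpg were the tested members that passed the threshold with IL-4c in WT, both lower, and they lie 62726 bases apart on chromosome 7. The RefSeq promoter table (GRCm38.p6) held windows of 3 of the 5 members, Cebpa, Cebpb and Cebpg. The 250 bases before the start of both genes are shown for that reason; capitals mark every match to the motifs TTGCG (the core of a C/EBP site), CCAAT and TATAAA, searched on both strands after their results were known.
Cebpa, chr7:35119043-35119292, plus strand: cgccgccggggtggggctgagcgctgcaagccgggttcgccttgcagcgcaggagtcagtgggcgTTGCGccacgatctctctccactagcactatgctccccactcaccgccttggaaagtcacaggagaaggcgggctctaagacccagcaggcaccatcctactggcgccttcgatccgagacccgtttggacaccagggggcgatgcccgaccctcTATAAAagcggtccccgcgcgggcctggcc
Cebpg, chr7:35056567-35056816, minus strand: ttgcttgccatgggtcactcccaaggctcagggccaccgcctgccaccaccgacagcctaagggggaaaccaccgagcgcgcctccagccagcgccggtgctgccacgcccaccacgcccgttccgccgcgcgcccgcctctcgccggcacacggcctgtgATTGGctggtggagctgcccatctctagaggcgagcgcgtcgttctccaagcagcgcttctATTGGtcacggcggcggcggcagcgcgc
In the Cebpa window TTGCG lay at -185 to -181 and TATAAA at -30 to -25 from the start. In the Cebpg window CCAAT lay on the opposite strand, read as ATTGG, at -89 to -85 and again at -28 to -24. Neither window, nor that of Cebpb, held CACGTG or the palindromic C/EBP site TTGCGCAA, which contains TTGCG. Of all 32851 windows of this length 6.02% held CACGTG, 0.164% TTGCGCAA, 14.5% TTGCG, 33.8% CCAAT and 12.4% TATAAA. A match describes letters only, and its absence says nothing about binding elsewhere.

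The labels were checked on Bhlhe40 itself (chromosome 6, 108660629 to 108666925). Its signal was lower in KO than in WT in AM (-2.17 ± 0.19), in naive LPM (-1.89 ± 0.15) and in IL-4c LPM (-0.93 ± 0.19), each value with its SE and with limma adjusted p = 0.013 or smaller. In the arrays labelled LysM it was 8.75 and 8.83, against 8.77 and 8.99 in WT IL-4c LPM (-0.09, 95% interval -0.50 to 0.31, adjusted p = 0.84), so these values do not check the LysM label; the place of this probe set in the gene, inside or outside the floxed stretch, was not analysed here. LPM markers averaged 10.23 to 10.79 in the LPM groups and 5.16 to 5.42 in AM, and AM markers 9.80 to 10.24 in AM, 6.31 to 6.73 in naive LPM and 7.43 to 7.82 in IL-4c LPM. Neutrophil, eosinophil, mast cell, B cell and T and NK cell marker lists averaged between 3.41 and 4.98, and array medians were 4.79 to 4.93. The list for dendritic cells, monocytes and small peritoneal macrophages averaged 4.72 to 4.99 in naive LPM, 5.15 to 5.52 in WT, 5.32 to 5.56 in KO and 5.59 to 5.66 in LysM after IL-4c. Of its tested genes Clec10a rose with IL-4c in WT (3.16) and Ccr2 fell (-1.10), while Cd209a (0.81) and Itgax (0) were not called. In the AM list Chil3 rose (5.66) and Fabp4 fell (-1.20) in WT LPM. The averages of both lists therefore mix genes that went different ways. B cell markers averaged 4.51 to 4.73 in WT and 4.30 to 4.98 in KO naive LPM, and after IL-4c 3.68 to 3.72 in WT, 3.83 to 3.91 in KO and 3.80 to 3.84 in LysM; Cd79a (-1.65 and -1.05), Cd79b (-1.58 and -1.08) and Ms4a1 (-1.32 and -1.24) fell with IL-4c in WT and KO, and Cd79a was 0.97 apart between KO and WT after IL-4c (limma adjusted p = 0.072). The part of these lists in the IL-4c values of the C/EBP genes was not tested. Arrays of 1 group correlated at 0.989 to 0.995, and arrays of different genotype in the same tissue and treatment at 0.981 to 0.994, so the correlations do not separate the genotypes.

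Cebpa (chromosome 7, 35119293 to 35121928) showed the widest fall with IL-4c among the tested members. In naive WT LPM its signal was 8.77, 8.96 and 9.11, and in WT LPM after IL-4c it was 7.46 and 7.13. In KO it was 8.68, 8.94 and 9.0 in naive LPM and 8.34 and 8.30 after IL-4c. The treated arrays lay below all untreated arrays of the same genotype in both. Cebpa fell 3.13-fold in WT (-1.65 ± 0.16, SE; 95% interval -1.99 to -1.31; limma adjusted p = 1.2e-06). In KO it fell 1.47-fold (-0.55 ± 0.16, -0.89 to -0.22, adjusted p = 0.013). Without either of the KO IL-4c arrays the fall in KO missed the threshold (-0.58 and -0.53, adjusted p = 0.056 and 0.065). In samples of many cells, fewer cells of a type and less RNA per cell cannot be told apart.

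Cebpg (chromosome 7, 35046422 to 35056566) was lower after IL-4c in WT, past the threshold, and not in KO. Naive WT LPM read 8.05, 8.63 and 8.29, and WT IL-4c LPM 7.44 and 7.38. In KO the values were 8.10, 8.23 and 8.26 before and 8.06 and 8.13 after IL-4c, and these overlapped. Cebpg fell 1.89-fold in WT (-0.92 ± 0.15, -1.24 to -0.60, limma adjusted p = 0.00016), while the KO difference was -0.10 (-0.42 to 0.22, adjusted p = 0.64). Cebpa and Cebpg were 2 of the 4 members tested in WT LPM, both lower, where 41.2% of the 11634 genes tested were called in either direction and 19.2% were lower. In KO LPM 1 of the 4 was called, where 37.3% of genes were called and 15.4% were lower.

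**Figure D1:**
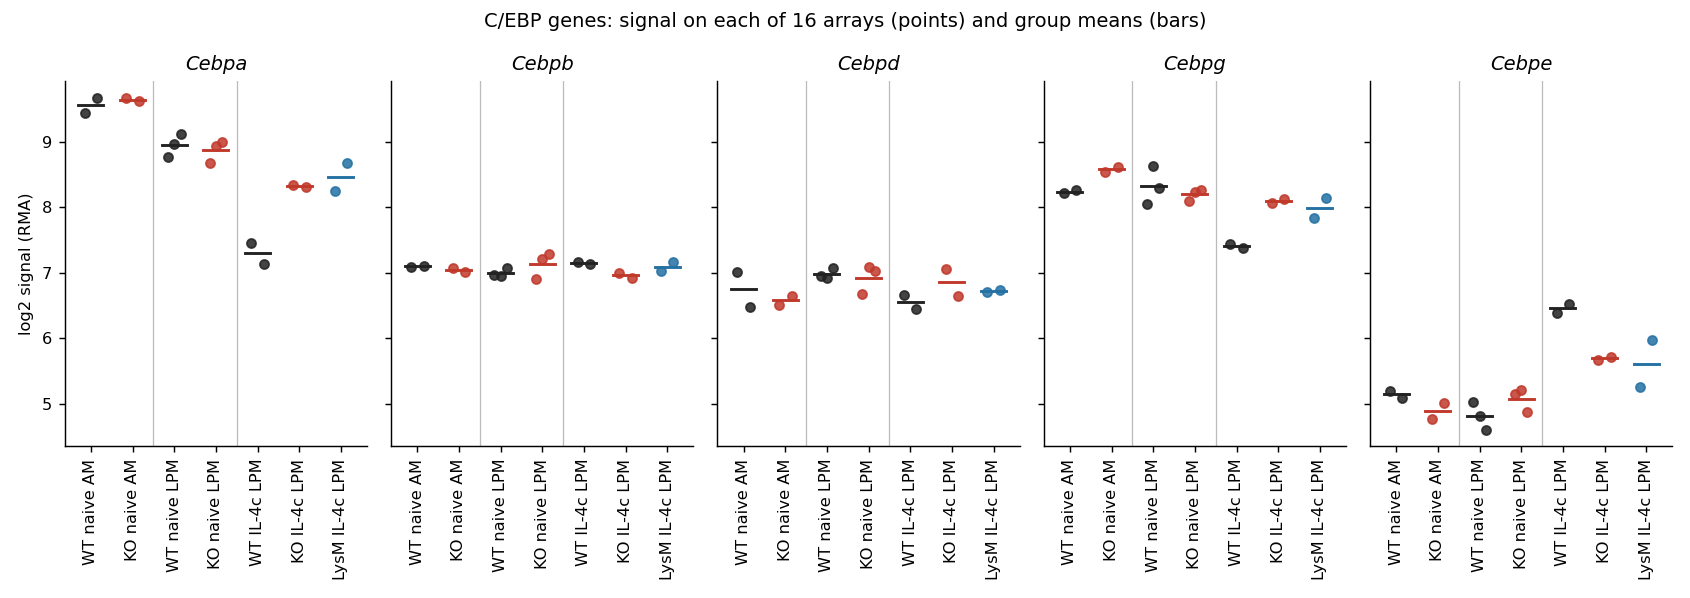
Log2 RMA signal of the 5 C/EBP genes on each of the 16 arrays, by group (black WT, red KO, blue LysM); points are arrays and short bars group means. The 2 WT IL-4c LPM arrays hold the lowest Cebpa (7.13 and 7.46) and Cebpg (7.38 and 7.44) and the highest Cebpe (6.39 and 6.52) values; levels of different genes are not comparable.

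Cebpb (chromosome 2, 167688915 to 167690432) hardly varied. Over all 16 arrays it lay between 6.90 and 7.29, and every group overlapped its neighbours in the order of means. Its IL-4c difference was 0.16 in WT (-0.11 to 0.42, limma adjusted p = 0.34) and -0.17 in KO (-0.44 to 0.09, adjusted p = 0.29). These intervals hold no change larger than 0.44 in either direction on the log2 scale.

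Cebpd (chromosome 16, 15887286 to 15889545) read 6.95, 6.92 and 7.08 in naive WT LPM and 6.66 and 6.45 after IL-4c, without overlap. The difference of -0.43 (-0.80 to -0.06) missed the threshold (limma adjusted p = 0.059); it passed when the arrays were quantile-normalized a second time (-0.47, adjusted p = 0.046) and when only the compared arrays were fitted (adjusted p = 0.018). In KO the values overlapped, at 6.67, 7.09 and 7.02 before and 7.06 and 6.65 after (-0.08, adjusted p = 0.77).

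Cebpe (chromosome 14, 54710363 to 54712174) went the other way, and its values chose the family, so they carry no test. Its signal exceeded the array median on 13 of 16 arrays. In naive LPM it read 5.03, 4.82 and 4.61 in WT and 5.15, 5.21 and 4.88 in KO. After IL-4c it read 6.39 and 6.52 in WT, 5.67 and 5.72 in KO and 5.26 and 5.97 in LysM. The IL-4c values lay above all naive values in both genotypes, 3.11-fold higher in WT and 1.53-fold higher in KO. Naive WT LPM lay 0.19, -0.03 and -0.28 from the array medians, and naive KO LPM 0.24, 0.28 and 0.03. Without detection calls these fold sizes are therefore uncertain. Eosinophil markers, another cell type in which C/EBP-epsilon acts, averaged 3.65 to 3.89 in WT, 3.51 to 3.73 in KO and 3.68 to 3.73 in LysM after IL-4c, with 0 of 5 above the median on every array of a group; neutrophil markers averaged 3.85 to 4.05 in the same groups, with 1 of 9 above it. Both lists averaged below every array median, and their part in the Cebpe values was not tested.

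**Figure D2:**
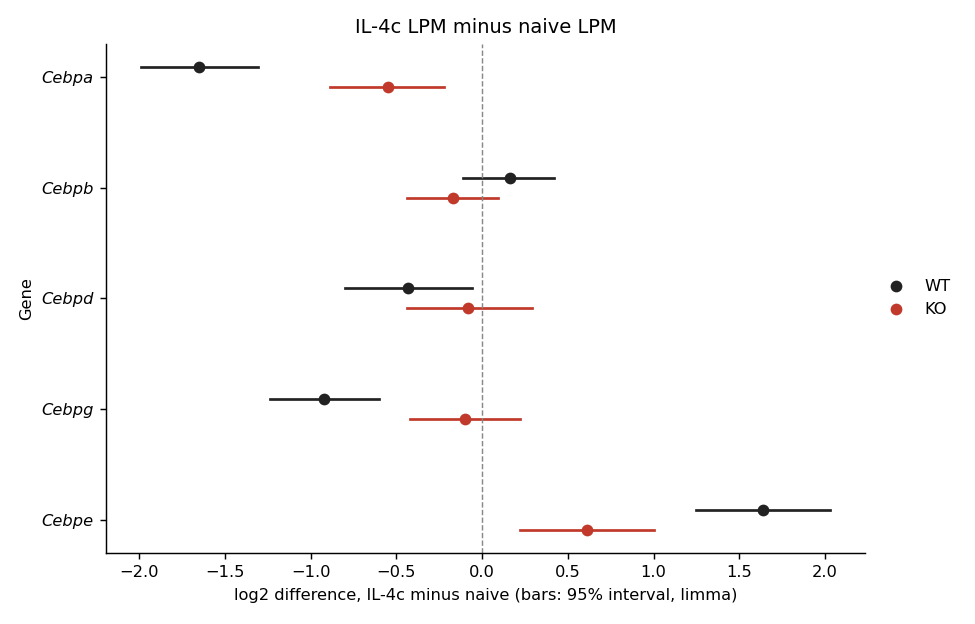
Log2 difference between IL-4c and naive LPM for each gene in WT (black) and KO (red); points are limma estimates and bars 95% intervals. Cebpa is at -1.65 in WT and -0.55 in KO, Cebpg at -0.92 and -0.10, and Cebpe, given as a description, at 1.64 and 0.61.

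The IL-4c responses of WT and KO were set against each other as an interaction, the KO-minus-WT difference after IL-4c less that in naive LPM. It holds the IL-4c contrast for which the family was selected, so for the members it is a description with no test. The value was 1.09 (0.61 to 1.57) for Cebpa, of which 1.02 is the difference after IL-4c and -0.07 that in naive LPM. It was 0.82 (0.36 to 1.27) for Cebpg, 0.35 (-0.17 to 0.87) for Cebpd, -0.33 (-0.71 to 0.04) for Cebpb and -1.02 for Cebpe. Over the 10 fits that left out 1 array the Cebpa value ran from 0.93 to 1.26.

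After IL-4c the mutants differed from WT in the same members, given here without a test. Cebpa read 8.34 and 8.30 in KO and 8.24 and 8.68 in LysM, all above the WT values of 7.46 and 7.13, 2.03-fold higher in KO and 2.24-fold higher in LysM. Cebpg read 8.06 and 8.13 in KO and 7.83 and 8.14 in LysM, again all above WT (0.68 and 0.57). Cebpe was 1.69-fold lower in KO and 1.80-fold lower in LysM, with no overlap with WT. Cebpb differed by -0.19 and -0.06, and Cebpd by 0.30 and 0.16. Of these smaller differences, Cebpb in KO and Cebpd in LysM did not overlap with WT either. The share of all genes without overlap is not given here, so lack of overlap in this paragraph is a description only. Both differences of each member use the same pair of WT arrays. The LysM pair was wide for Cebpe and Cebpa: without LysM 1 the Cebpe difference was -0.49 and without LysM 2 it was -1.20, and the Cebpa difference was 1.38 and 0.94. The Cebpd difference in KO was 0.09 without KO 1 and 0.51 without KO 2. Over all genes 3.63% were called for KO and 8.67% for LysM. General macrophage markers (Csf1r, Lyz2, Mertk, Fcgr1, Cd68) averaged 9.99 to 10.17 in naive WT LPM, 8.75 to 8.94 in WT IL-4c LPM, 9.06 to 9.34 in KO and 9.29 to 9.32 in LysM. Like Cebpa they were lowest in WT IL-4c LPM, and their part in its values was not tested.

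**Figure D3:**
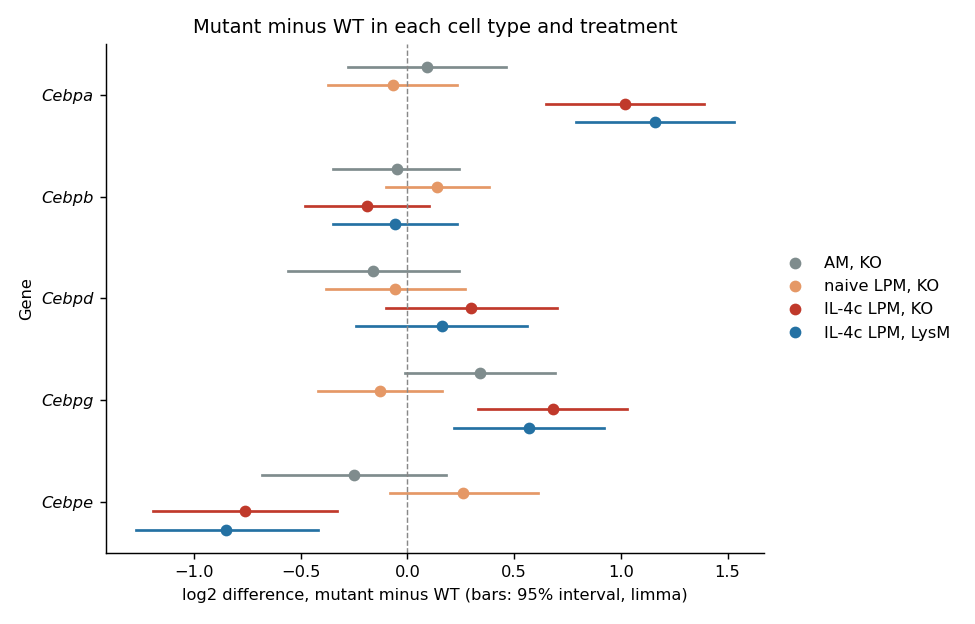
Log2 difference, mutant minus WT, for each gene in AM (grey), naive LPM (orange), IL-4c LPM of KO (red) and IL-4c LPM of LysM (blue); points are limma estimates and bars 95% intervals, with no test attached to the IL-4c values. Cebpa lies at 0.09 in AM, -0.07 in naive LPM, 1.02 in KO and 1.16 in LysM after IL-4c.

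Without IL-4c no C/EBP gene was called in KO. In AM 0 of 5 members passed in the limma fit, where 0.120% of genes were called, and 0 had an unadjusted p under 0.05. The nearest was Cebpg, at 8.21 and 8.26 in WT and 8.54 and 8.61 in KO, without overlap (0.34, -0.01 to 0.69, unadjusted p = 0.056, adjusted p = 0.94). Cebpe read 5.20 and 5.09 in WT AM and 4.77 and 5.02 in KO AM (-0.25, limma adjusted p = 0.94). Neither Cebpe nor Cebpb overlapped between KO and WT AM, so the lack of overlap was not particular to Cebpg. The share of all genes without overlap is not given here, so with 2 arrays against 2 this is a description only. In naive LPM 0 of 5 passed, where 1.88% of genes were called, and 0 had an unadjusted p under 0.05. Cebpe had the largest difference there (0.26, -0.08 to 0.61, limma adjusted p = 0.49) with overlapping arrays, and that of Cebpa was -0.07 (-0.37 to 0.23, adjusted p = 0.87). The KO effects in LPM and AM did not differ past the threshold for any of the 5 (0.249% of all genes did). Cebpg had the smallest unadjusted p of this test, 0.042 (-0.47, limma adjusted p = 0.36), the 1 member under 0.05.

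Between the tissues Cebpa was the member that differed. In AM it read 9.44 and 9.67 in WT and 9.66 and 9.62 in KO, above all LPM arrays. It was 1.53-fold lower in naive LPM than in AM in WT (-0.61 ± 0.16, limma adjusted p = 0.0057) and 1.70-fold lower in KO (-0.77 ± 0.16, adjusted p = 0.00099). That made 1 of 5 members in WT, where 38.3% of genes were called and 17.1% were lower, and 1 of 5 in KO, where 40.0% were called and 22.8% were lower. Without WT AM 2 the WT difference missed the threshold (-0.50, adjusted p = 0.073). Cebpg differed by 0.09 in WT and by -0.38 in KO (adjusted p = 0.054); in KO it passed with arrays centred on their medians (-0.47, adjusted p = 0.023) and with only the compared arrays (adjusted p = 0.039). Cebpd differed by 0.24 and 0.35 (adjusted p = 0.30 and 0.12); in KO it passed without KO naive LPM 1 (0.48, adjusted p = 0.047). Cebpb (-0.10 and 0.09) and Cebpe (-0.33 and 0.19) stayed below the threshold in both genotypes. The naive WT LPM arrays also serve as the baseline of the IL-4c response.

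Groups were then ordered by their means. For Cebpa the order was AM of KO (9.64) and WT (9.56), which overlapped, then naive LPM of WT (8.94) and KO (8.88), which overlapped, then IL-4c LPM of LysM (8.46) and KO (8.32), which overlapped, and last IL-4c LPM of WT (7.30). For Cebpg the means of KO AM (8.58), WT naive LPM (8.32), WT AM (8.24), KO naive LPM (8.19), KO IL-4c (8.09) and LysM IL-4c (7.98) each overlapped the next, and WT IL-4c (7.41) lay apart. For Cebpe WT IL-4c (6.46) lay apart at the top, KO (5.70) and LysM IL-4c (5.61) overlapped and lay above the untreated groups, and the 4 untreated groups (4.82 to 5.15) each overlapped the next below them. Cebpd means ran from 6.98 in WT naive LPM to 6.56 in WT IL-4c LPM, with a gap only between LysM IL-4c LPM (6.72) and KO AM (6.58).

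The tested genes whose signal was most like that of each member over the 16 arrays, by Pearson correlation, are named as a description; all arrays share the tissue and treatment groups. For Cebpa they were Ppt1 (0.97), Itpr2, Sat1, Xpr1 and Cd302 (0.954). For Cebpe they were Pimreg (0.955), Fxyd6, Aurka, Cenpa and Haus4 (0.939). For Cebpg they were Rnf130 (0.925), Vps13d, Jmy, Pcnx and Tmem140 (0.881). Likeness was weaker for Cebpd, with Reep3 (0.818), Sap30l, Zfp90, Mat2b and Foxq1 (0.769), and for the nearly constant Cebpb, with Ccnh (0.733), Cdk7, Osgepl1, Galnt4 and Actr3 (0.678). The 95th percentile over all tested genes was 0.785 for Cebpa, 0.8 for Cebpe, 0.68 for Cebpg, 0.516 for Cebpd and 0.324 for Cebpb.

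Partners, regulators and textbook target genes of the family were then read from 9 lists of 89 genes, of which 68 passed the filter on low values. The lists were chosen with earlier results of these data known, so the shares of calls in them, here and below, are a description. After IL-4c 17 of the 68 rose and 25 fell in WT, and 20 rose and 20 fell in KO; 35 of the 42 calls in WT and 30 of the 40 in KO held whichever array was left out. These shares are set against 41.2% and 37.3% of all genes. The median difference was -0.11 in WT and -0.03 in KO over the 68 genes, and 0.02 and 0.04 over all genes. The interaction was called for 3 of the 68, higher for Csf3r and Jun and lower for Arg1 (median 0.20, with 0.03 over all genes), where 0.550% of all genes were called and 0.404% were higher.

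Among bZIP partners and relatives 3 of 13 rose and 4 fell in WT, and 6 rose and 2 fell in KO (medians -0.17 and 0.13). The AP-1 genes Jun (-2.12 and -0.82) and Fos (-2.54 and -1.24) fell in both genotypes. Nfil3, a bZIP repressor, rose in both (1.40 and 1.16), as did Atf5 (1.0 and 0.66) and Batf3 (0.94 and 0.85). The 4 that fell in WT became 2 without WT naive LPM 2 or 3 or without either WT IL-4c array, and the 6 that rose in KO became 3 without KO IL-4c 1. Of 10 cofactors and regulators 1 rose and 4 fell in each genotype (medians -0.39 and -0.32). Trib1, a pseudokinase that targets C/EBP-alpha for degradation, fell with it (-1.91 in WT and -1.01 in KO). Irf8, a monocyte and macrophage lineage factor, fell by 1.91 and 1.23, while the coactivator genes Crebbp (-0.92 and -0.61) and Ep300 (-1.06 and -0.50) fell in both. Id1, an inhibitor of helix-loop-helix factors, rose in WT (1.07). Spi1, the gene of PU.1, rose in KO alone past the threshold (0.53, limma adjusted p = 0.0081), and the difference between genotypes was not called. In KO the calls of Jun and Ep300 were lost without KO IL-4c 2 (limma adjusted p = 0.075 and 0.10) and that of Spi1 without KO IL-4c 1 (0.11). Jun also had a called interaction (1.30 ± 0.26, adjusted p = 0.034), which held in 2 of 10 fits without 1 array, those without WT naive LPM 1 or KO IL-4c 2.

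Of the 6 myeloid receptor genes tied to C/EBP-alpha 2 rose and 3 fell in WT, and 2 rose and 2 fell in KO (medians -0.34 and 0.05). Csf3r, the G-CSF receptor gene and a classical C/EBP-alpha target, read 9.20, 9.44 and 9.38 in naive WT LPM and 5.88 and 5.32 after IL-4c. In KO it read 8.58, 8.42 and 8.47 before and 6.67 on both arrays after. It fell 13.4-fold in WT (-3.74 ± 0.17, limma adjusted p = 5.3e-10) and 3.53-fold in KO (-1.82 ± 0.17, adjusted p = 1.7e-06). The interaction was 1.92 ± 0.24 (adjusted p = 0.0026) and held in all 10 fits without 1 array. KO Csf3r was lower than WT in naive LPM (-0.85), higher in AM (1.28) and higher after IL-4c (1.07, with 1.29 in LysM); the naive LPM call was lost without WT naive LPM 2 (adjusted p = 0.056), the AM call without WT AM 1 or KO AM 2 (up to 0.21) and the IL-4c KO call without WT IL-4c 2 (0.10). Csf1r, the M-CSF receptor gene, fell (-0.70 and -0.47, the latter lost without KO IL-4c 1 with adjusted p = 0.064), and Csf2rb, the common beta chain gene of GM-CSF receptors, rose (1.01 and 0.69).

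Of the granule genes tied to C/EBP-epsilon, 7 of 12 passed the filter; 4 of the 12 also stand in the neutrophil list and Chil3 in that of AM. In each genotype 2 rose and 3 fell with IL-4c (medians 0.06 and 0.30). Chil3, the chitinase-like Ym1, read 6.66, 6.50 and 7.20 in naive WT LPM and 12.49 and 12.39 after IL-4c (5.66 ± 0.41). Naive KO LPM gave 6.09, 3.81 and 5.17, and IL-4c gave 12.55 and 12.44, so the treated groups overlapped and the naive ones did not. Naive KO 2 lay 1.12 below its array median, and without detection calls no size is given for the rise in KO; differences of the naive KO group in this gene are likewise uncertain in size. Pglyrp1, a peptidoglycan-binding granule protein gene, rose by 1.61 in WT and by 1.47 in KO from different levels. It read 8.38, 8.47 and 8.21 in naive WT LPM and 9.67 and 10.27 after IL-4c. In KO it read 5.98, 5.61 and 5.74 before and 6.85 and 7.63 after, and LysM IL-4c LPM read 5.71 and 7.38. Hp, the haptoglobin gene, fell in both (-3.50 and -2.47), as did Cd177 (-1.62 and -0.73) and Mmp9 (-1.09 and -1.28). Among 3 primary granule genes Lyz1 (-2.95 and -3.07) and Lyz2 (-2.26 and -1.69) fell in both, and Prtn3 rose in KO (1.76; median -2.26 in WT and -1.69 in KO). In KO the call of Pglyrp1 was lost without KO IL-4c 2 (limma adjusted p = 0.064) and that of Cd177 without KO IL-4c 1 (0.16). Lyz1 and Lyz2, like Chil3 and its relatives, are near-identical copies whose probes may share signal.

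Of the macrophage genes tied to C/EBP-beta 7 of 12 passed the filter, 2 of which rose in each genotype, while 4 fell in WT and 3 in KO (medians -0.73 and -0.71). Arg1, arginase 1 and a hallmark of alternative activation, read 8.36, 8.05 and 7.91 in naive WT LPM and 12.25 and 12.30 after IL-4c (4.17 ± 0.17, limma adjusted p = 1.6e-10). Naive KO LPM already read 9.61, 9.26 and 9.81, and reached 12.36 and 12.24 (2.74 ± 0.17, adjusted p = 2.9e-08). The interaction was -1.43 ± 0.25 (adjusted p = 0.013), made of a KO-minus-WT difference of 1.46 in naive LPM and of 0.03 (-0.38 to 0.43) after IL-4c. It was lost without WT IL-4c 2 (adjusted p = 0.071). Il6 rose in both (2.09 and 1.33), and Cd14 (-2.08 and -1.29) and the scavenger receptor gene Msr1 (-1.57 and -1.01) fell. Without WT IL-4c 1 the 4 that fell in WT became 2.

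Of the 6 acute-phase genes that passed, the prothrombinase gene Fgl2 rose (1.39 and 1.70) and the ceruloplasmin gene Cp fell (-2.17 and -1.97) in both genotypes, Orm1 fell in WT (-1.01) and Lrg1 rose in KO (1.04); medians were 0.04 and 0.09. Orm1 was lost without WT IL-4c 2 (adjusted p = 0.37). Of 8 lipid genes of the C/EBP-PPAR program 2 rose and 3 fell in each genotype (medians -0.25 and -0.29). The lipogenic genes Fasn (1.08 and 0.72) and Scd1 (1.31 and 1.38) rose, and Lpl (-2.39 and -1.96), Fabp4 (-1.20 and -1.47) and Cd36 (-1.49 and -0.72) fell. The Cd36 fall in KO was lost without KO naive LPM 2 or 3 or KO IL-4c 2 (adjusted p of up to 0.20). Of 8 stress and glutathione genes tied to ATF4 and C/EBP-gamma 4 rose in WT and 2 in KO, and 0 fell (medians 0.61 and 0.06). The amino acid synthesis genes Asns (2.09 and 1.64) and Psat1 (1.98 and 1.68) rose in both, while Gclm (0.74) and Chac1 (0.72) rose in WT; Chac1 was lost without WT IL-4c 2 (adjusted p = 0.096). The interaction was not called for any of the 8. Cebpg RNA fell in WT, and its part in the values of these genes was not tested.

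Without IL-4c, in AM 1 of the 68 differed between KO and WT past the threshold, Csf3r, where 0.120% of all genes did. In naive LPM 3 were higher and 7 lower, where 1.88% of all genes were called in either direction (median -0.12, with -0.03 over all genes). Over all genes 28.3% of the calls there were higher, and 45.6% when the arrays were quantile-normalized a second time. Among the granule genes tied to C/EBP-epsilon Pglyrp1 (5.98-fold lower, -2.58 ± 0.31, limma adjusted p = 3e-04), Chil3 (-1.76) and Cd177 (-0.78) were lower. Of the 7, 0 lay above 0 (median -0.78), where 43.2% of all genes did. Cebpe was 0.26 higher and not called, and its part in the values of these genes was not tested. Prtn3 of the primary granules was lower (-1.91), as were the acute-phase gene Lrg1 (-2.30), Csf3r and the AP-1 relative Batf (-0.57). Arg1 (1.46), Pparg (0.87), the nuclear receptor that works with C/EBP-alpha in fat cells and AM, and Cp (0.77) were higher. Of these 10 calls, those of Pglyrp1, Lrg1, Arg1 and Pparg held in all 6 fits without 1 array. The other 6 were lost in 1 or more of them: Chil3 and Cd177 without any 1 of the WT arrays (adjusted p of up to 0.11 and 0.13), Cd177 also without KO 1 or KO 2, Prtn3 without any of these 5 arrays (up to 0.069), Batf without any of the 6 (up to 0.16), Cp without WT 1 or KO 2 (up to 0.083) and Csf3r as given above. Neutrophil markers averaged 3.91 to 4.00 in naive WT LPM and 3.93 to 4.02 in KO. Of the 4 neutrophil markers tested, 0 were called there in the limma fit.

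**Figure D4:**
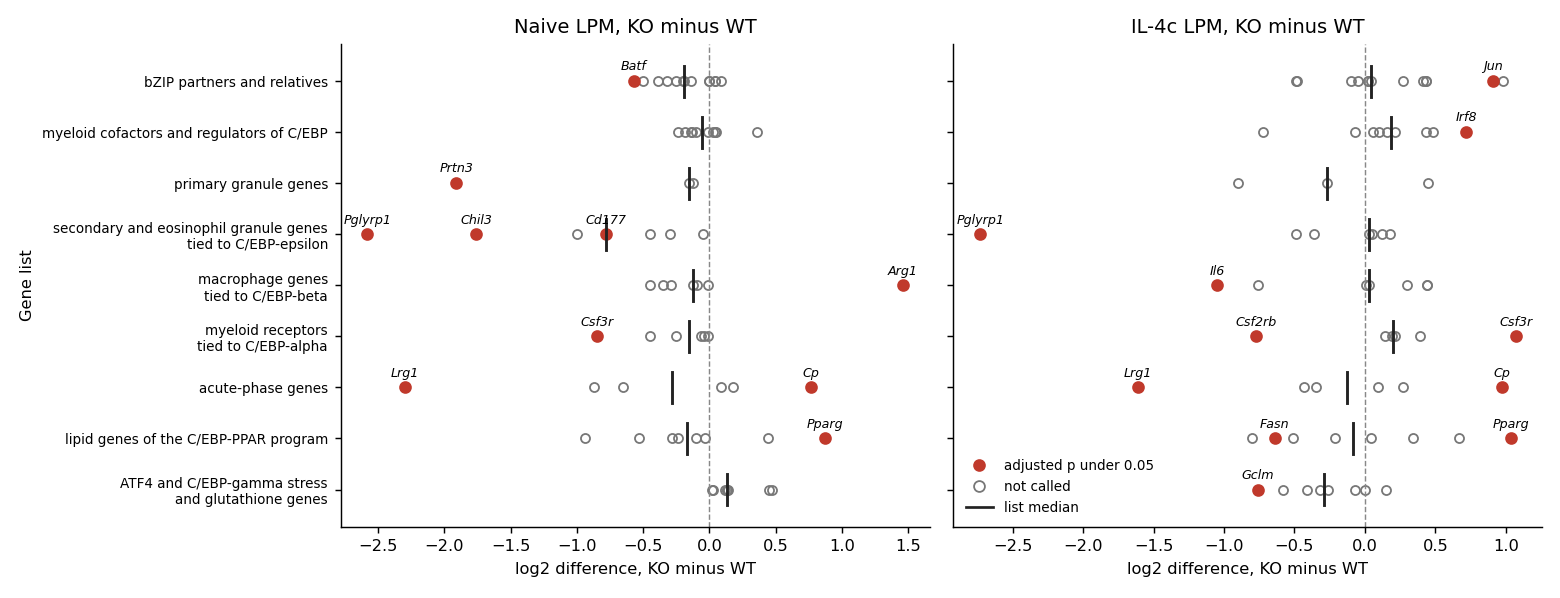
KO-minus-WT log2 difference of the 68 tested genes in 9 lists, in naive LPM (left) and IL-4c LPM (right); each point is a gene, red points had a limma adjusted p under 0.05 over all genes, and bars are list medians. In naive LPM the granule genes tied to C/EBP-epsilon have a median of -0.78 with Pglyrp1 at -2.58, and after IL-4c a median of 0.03 with Pglyrp1 at -2.73.

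After IL-4c 5 of the 68 genes were higher and 6 lower in KO than in WT, and 12 higher and 9 lower in LysM than in WT, against 3.63% and 8.67% of all genes in either direction. The medians were 0.04 and 0.08, and -0.02 and -0.01 over all genes. Both comparisons use the same WT pair, so the values stand side by side without a test of likeness. Pglyrp1 was 6.62-fold lower in KO (-2.73 ± 0.38, limma adjusted p = 0.00072) and 10.7-fold lower in LysM (-3.42 ± 0.38, adjusted p = 7.6e-05). It was 1 of 7 granule genes called in each. Lrg1 was lower (-1.61 and -1.84), as were Il6 (-1.05 and -1.67), Fasn (-0.64 and -0.99), Gclm (-0.76 and -0.72) and Csf2rb (-0.77 and -0.58). Csf3r (1.07 and 1.29), Cp (0.97 and 1.12), Pparg (1.04 and 0.92), Jun (0.91 and 0.93) and Irf8 (0.72 and 0.85) were higher. In LysM Fos (1.43), Lyz1 (1.63), Cd36 (1.07), Cd14 (1.0), Il1rn (0.78), Batf2 (0.64) and Il6ra (0.55) were also higher, and Id1 (-1.09), Il13ra1 (-1.07) and Nfil3 (-0.62) lower. Lyz1 was not called in KO (-0.27). It is a near-identical copy of Lyz2, whose promoter drives Cre in LysM mice, and the part of Cre in its value was not tested. The counts of called genes rested on single arrays. Without WT IL-4c 2 the calls dropped to 2 for KO and 8 for LysM, without KO 1 to 4 and without LysM 1 to 9. Of the KO calls Pglyrp1 and Lrg1 held in all 4 fits without 1 array, and of the LysM calls Pglyrp1, Lrg1, Il6, Csf3r, Cp and Fasn.

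Between tissues 25 of the 68 genes were higher and 27 lower in WT LPM than in WT AM, and 18 higher and 29 lower in KO, where 38.3% and 40.0% of all genes were called. The medians were -0.15 and -0.29, and 0.02 and -0.01 over all genes. Most of the lipid list was lower in LPM, with Cidec (-6.16 in WT and -5.87 in KO), Pparg (-5.55 and -4.94), Scd1 (-2.58 and -3.11) and Lpl (-2.0 and -2.96) lower in LPM; 5 of its 8 genes were lower and 1, Fabp4, higher in each genotype. Of the ATF4 and C/EBP-gamma list 7 of 8 were lower in LPM in WT and 5 of 8 in KO, led by the cystine transporter gene Slc7a11 (-3.45 and -3.37). The acute-phase genes Saa3 (8.16 and 8.15) and Lrg1 (4.67 and 2.39) and the integrin gene Itgam (7.71 and 7.72) were higher in LPM. Trib1 was lower in LPM, as Cebpa was (-1.16 and -1.65). Pglyrp1 was higher in LPM than in AM by 3.40 in WT and by 0.89 in KO, the latter not called. Its AM signal therefore lay near the array medians, where without detection calls a KO fall may not show. The KO effect differed between LPM and AM for 4 of the 68 genes, against 0.249% of all genes: Arg1 (1.58), Pglyrp1 (-2.51), Lrg1 (-2.28) and Csf3r (-2.13). Of these Csf3r held in all 10 fits without 1 array, Arg1 was lost without WT AM 1 or KO AM 2 (adjusted p of up to 0.090), Lrg1 without KO AM 2 (0.064) and Pglyrp1 in each of the 10 fits (0.055 to 0.22).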

How the data were processed

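The authors deposited a table of log2 RMA signal for 30177 probe sets on 16 arrays, with no detection calls. RMA is named in the submitters' processing notes, with no version given in the sources used here. Because it brings all arrays to a similar distribution (array medians 4.79 to 4.93 here), shifts of the total RNA content are not visible. Groups and replicate numbers came from titles. Probe sets with 1 gene symbol were used (21789; 1621 had several and 6767 none here), the brightest per gene. Genes whose signal exceeded the array's median on 2 or more arrays were tested (11634 of 19938).

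A model of group means over all arrays (limma 3.58.1 in R 4.3.3, empirical Bayes, 9 residual degrees of freedom) gave p-values, Benjamini-Hochberg adjusted within each of 10 comparisons and called under 0.05. The fit was tested on simulated data. The members and all gene lists were chosen with earlier results of these data known. Named genes were the members, Bhlhe40, up to 4 called genes with the largest differences per list and comparison in any of the comparisons, and the 5 genes most like each member. Same-numbered arrays correlated at -0.139 to 0.148 in their deviations from group means, and the numbers were not taken to pair them. Alternatives were a second quantile normalization, centring, no filter on low values, the mean of probe sets, a replicate block, only the compared arrays and leaving out each array, where a lone array is assumed to vary like the other groups. Promoters and positions are from RefSeq tables (GRCm38.p6). Figures used Python 3.11.15 and matplotlib 3.10.9.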

Additional observations from a re-analysis of the deposited data

Results flagged for a closer look

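The KO-minus-WT difference of Cebpa was -0.07 in naive LPM and 1.02 after IL-4c, 1.09 apart. It is listed because the difference between both passed the threshold in the limma fit (adjusted p = 0.039). That fit holds the contrast for which the family was selected, so its p is no independent test. The call was lost in the second quantile normalization (1.01, adjusted p = 0.055) and in 7 of 10 fits without 1 array, those without WT naive LPM 2 or 3, KO naive LPM 1 or 2, WT IL-4c 2 or KO IL-4c 1 or 2 (adjusted p of up to 0.19).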

How the results depend on the processing

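No called or described member difference changed sign under any alternative except that of Cebpb in LysM, which was 0.01 in 1 of the fits that left out an array. Of 452 alternative values of member differences with a p-value, 435 kept their side of the threshold, 11 lost the call and 6 gained it. These 452 include the IL-4c interactions of Cebpa, Cebpb, Cebpd and Cebpg, whose calls are no independent test. Of 138 other described values 6 moved by more than the spread within groups. With a second quantile normalization the IL-4c interaction held 0 called members. With arrays centred, KO LPM against AM held 2. With only the compared arrays it also held 2, and the pathway genes called after IL-4c numbered 5 for KO and 5 for LysM, where fewer arrays carry the variance. Leaving out 1 array gave 2 to 11 called pathway genes for KO and 8 to 20 for LysM after IL-4c, 0 to 1 called members for the IL-4c response of KO and for WT LPM against AM, 1 to 2 for KO LPM against AM and 0 to 2 for the IL-4c interaction, which is not independent of the choice of the family; the 0 called members of both untreated KO comparisons and of the tissue interaction, and the 2 of the WT IL-4c response, stayed the same.

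With the replicate number as a block (replicate block), the called members numbered 2 and 1 for the IL-4c responses of WT and KO. They numbered 1 for each tissue comparison and 1 for the interaction (Cebpa, 1.09), which is not independent of the choice of the family. The called pathway genes numbered 10 and 21, and no call of a member changed.

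With 2 or 3 arrays in a group, small differences could not be told from the spread between arrays, and signals near the array median, such as those of Cebpe, have no detection call.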
